A study of Mus musculus with 8 samples.

Results

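The genes of glycolysis, of pyruvate and lactate conversion and of the tricarboxylic acid (TCA) cycle were followed in mouse embryos from the 2-cell stage to the blastocyst. The set was given as 41 symbols. It was found by exact symbol as 40 of the 23234 genes listed in each library, because the pyruvate kinase gene Pkm appears under its older symbol Pkm2 alone. The row labelled Pkm2 is therefore the whole gene, and splice forms of it are not separated. The set holds 9 genes of glucose phosphorylation and upper glycolysis, 6 of lower glycolysis, 3 lactate dehydrogenases, 4 components of the pyruvate dehydrogenase complex and its 4 kinases, 2 fructose bisphosphatases, 4 bifunctional PFK-2/FBPase-2 enzymes and 8 TCA cycle genes.

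The study asked what the absence of Tet3, a dioxygenase of the egg that converts 5-methylcytosine to oxidized forms, from the oocyte changes in the embryo's transcriptome. Oocytes were taken after superovulation from WT females (f/f, both Tet3 alleles floxed) or CKO females (Zp3-Cre, f/-, 1 floxed and 1 null allele), and Zp3-Cre acts in growing oocytes. All were fertilized in vitro with CAST/EiJ sperm, so the embryos called Tet3-null here lacked the maternal allele and still received a Tet3 allele from the father. Zygotes with 2 pronuclei were cultured in KSOM medium, and pools of 10 2-cell embryos at 30 h or 7 blastocysts at 96 h were sequenced as amplified cDNA, with 2 libraries in each of the 4 groups (wild-type 2-cell, Tet3-null 2-cell, wild-type blastocyst, Tet3-null blastocyst). The labels give no age for the females and do not say whether WT females carried Cre. Whether both libraries of a group came from different mothers or collection days is not stated, and p-values then reflect the library-to-library spread alone, which may be technical.

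In glycolysis, glucose is phosphorylated by hexokinase and split into trioses that are oxidized to pyruvate. Lactate dehydrogenase interconverts pyruvate and lactate, and the pyruvate dehydrogenase complex, which its kinases inhibit, passes pyruvate carbon to the TCA cycle as acetyl-CoA. The cleavage-stage mouse embryo is known to depend on pyruvate and lactate from the medium and to take up glucose mainly from the morula stage on. Many of these steps are catalysed by more than one paralog.

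Depth is known only in relative terms. FPKM, the unit used throughout, is fragments scaled by transcript length and by the library's mapped total, so levels of different genes can be set side by side, but each is a share of its library and RNA per embryo was not measured. Within a stage, the commonest ratio of low values between libraries put relative depth between 1 and 1.22 at the 2-cell stage and between 1 and 1.32 at the blastocyst stage. Tet3-null 2-cell replicate 2 listed 7101 genes at 0 against 5549 to 6080 in the other 2-cell libraries. The level of Tet3 was 10.8 and 7.54 FPKM in the wild-type and 3.28 and 4.41 FPKM in the Tet3-null 2-cell libraries, 2.38-fold lower, with an adjusted p of 0.0690 by limma. As sums, the markers followed the stage labels. The summed FPKM of 7 2-cell markers was 1028 to 1886 in 2-cell libraries and 0.816 to 3.47 in blastocysts. That of 8 blastocyst markers was 182 to 205 and 2807 to 4489. Nanog held most of their 2-cell sum and did not rise (134 to 167, then 114 to 145 FPKM). The other blastocyst markers were higher in every blastocyst library than in any 2-cell library. Tfap2c was so by little (13.7 to 25.1, then 25.9 to 32.0 FPKM), and Sox17 stayed at or below 1.30 FPKM. Markers of cumulus cells summed to at most 30.5 FPKM over 8 genes (nearly all Tnfaip6, with Amh at 0 in every library) and those of sperm to at most 23.4 over 6. The 7 blood and somatic markers summed to 26.7 and 26.4 FPKM in wild-type and 14.2 and 13.9 FPKM in Tet3-null 2-cell libraries, and to 9.75 to 15.7 FPKM in blastocysts. Hba-a2, a haemoglobin gene, held most of the 2-cell sum (17.0, 16.9, 9.24 and 8.25 FPKM), and Hbb-b1 was at 0 in every library. Pecam1, listed here as an endothelial marker, was at 6.08 to 9.75 FPKM in the blastocyst libraries. Whether embryo cells or other cells gave its reads was not tested. In whole-embryo pools, fewer cells of a type and less RNA per cell cannot be told apart.

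The sequences upstream of the genes on which the paralog results below turn are shown because the data bear on their transcript levels: Ldha and Ldhb exchange places as the main lactate dehydrogenase transcript, and Fbp2 has the largest rise of the set. Each is the 250 bases before the annotated start, from RefSeq on GRCm38.p6, a later build than the one the reads were mapped to. Capitals mark ACGTG on either strand, a form of the core of the hypoxia response element that overlaps the E-box CACGTG. The other form, GCGTG, was not searched. The windows are chr7:46845554-46845803 on the plus strand for Ldha (1 of its 2 annotated starts), chr6:142507958-142508207 on the minus strand for Ldhb and chr13:62858401-62858650 on the minus strand for Fbp2.
Ldha: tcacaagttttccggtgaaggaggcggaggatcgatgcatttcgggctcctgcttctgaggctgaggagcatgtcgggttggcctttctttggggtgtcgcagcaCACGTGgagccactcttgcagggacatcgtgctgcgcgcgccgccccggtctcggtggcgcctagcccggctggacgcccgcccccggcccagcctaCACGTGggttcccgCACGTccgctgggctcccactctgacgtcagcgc
Ldhb: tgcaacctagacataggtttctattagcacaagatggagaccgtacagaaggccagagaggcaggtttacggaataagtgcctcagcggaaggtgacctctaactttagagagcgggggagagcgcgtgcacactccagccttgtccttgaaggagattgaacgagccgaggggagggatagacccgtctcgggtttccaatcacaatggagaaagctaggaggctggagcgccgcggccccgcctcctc
Fbp2: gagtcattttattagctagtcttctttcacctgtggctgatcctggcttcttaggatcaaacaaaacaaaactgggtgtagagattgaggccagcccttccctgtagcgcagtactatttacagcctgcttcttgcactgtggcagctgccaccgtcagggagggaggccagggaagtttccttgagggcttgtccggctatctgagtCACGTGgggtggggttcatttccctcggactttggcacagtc
The Ldha window shown held 3 runs of ACGTG, the Fbp2 window 1 and the Ldhb window 0. These counts leave out the form GCGTG, which the Ldhb window does contain, unmarked. Of the 2 Ldha windows, only the one shown held ACGTG. Of the 40 genes, 39 matched the promoter table and Idh3a did not. The motif was present in 25 of their 64 windows (39.1%), against 16.6% of all 32851 windows of that length. Ogdh alone held 6 of the 25. The 25 belonged to 16 genes, beside 18.5% of all 27025 genes with a window. It was present for genes that rose between the stages (Hk2, Aldoa) and that fell (Ogdh, Pdk3). It was absent for others that rose (Sdhb, Fh1, Gapdh) and that fell (Ldhc, Pdk1). These matches describe letters only and say nothing of binding.

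Most of the set rose between the 2-cell stage and the blastocyst, in embryos of both genotypes. A gene is called changed at a Benjamini-Hochberg adjusted p under 0.05 in limma on log2(FPKM + 1), adjusted over all 13549 genes tested. In wild-type embryos 28 of the 38 genes tested were called higher and 7 lower in blastocysts, beside 35.8% higher and 38.4% lower among all genes tested. In Tet3-null embryos 29 were called higher and 6 lower, beside 38.9% and 35.1%. The median change of the tested genes was 1.45 in wild-type and 1.30 in Tet3-null embryos on the log2 scale, and that of all genes was -0.08 and 0.09. The calls coincided for 27 genes higher and 6 genes lower in both genotypes. Over the 4 libraries of each stage, 29 of the 40 lay above and 7 below their whole 2-cell range in every blastocyst library, where 37.8% and 37.0% of all genes tested did so. Pfkl, Pfkp, Pdk2 and Pdk4 overlapped between stages. Pdk2 and Pdk4 were too low to be tested.

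The genes together made up 0.224% to 0.266% of the summed FPKM of a 2-cell library and 0.649% to 0.710% of that of a blastocyst library. The 15 glycolysis genes summed to 382 to 471 FPKM at the 2-cell stage and to 2481 to 2780 FPKM in blastocysts. The 8 TCA cycle genes went from between 369 and 509 FPKM to between 2268 and 2576 FPKM. Maternal RNA was present in the 2-cell libraries: 6 oocyte markers summed to 1496 to 2348 FPKM there and to 1.32 to 1.96 FPKM in blastocysts. Its part in the stage differences was not tested.

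**Figure D1:**
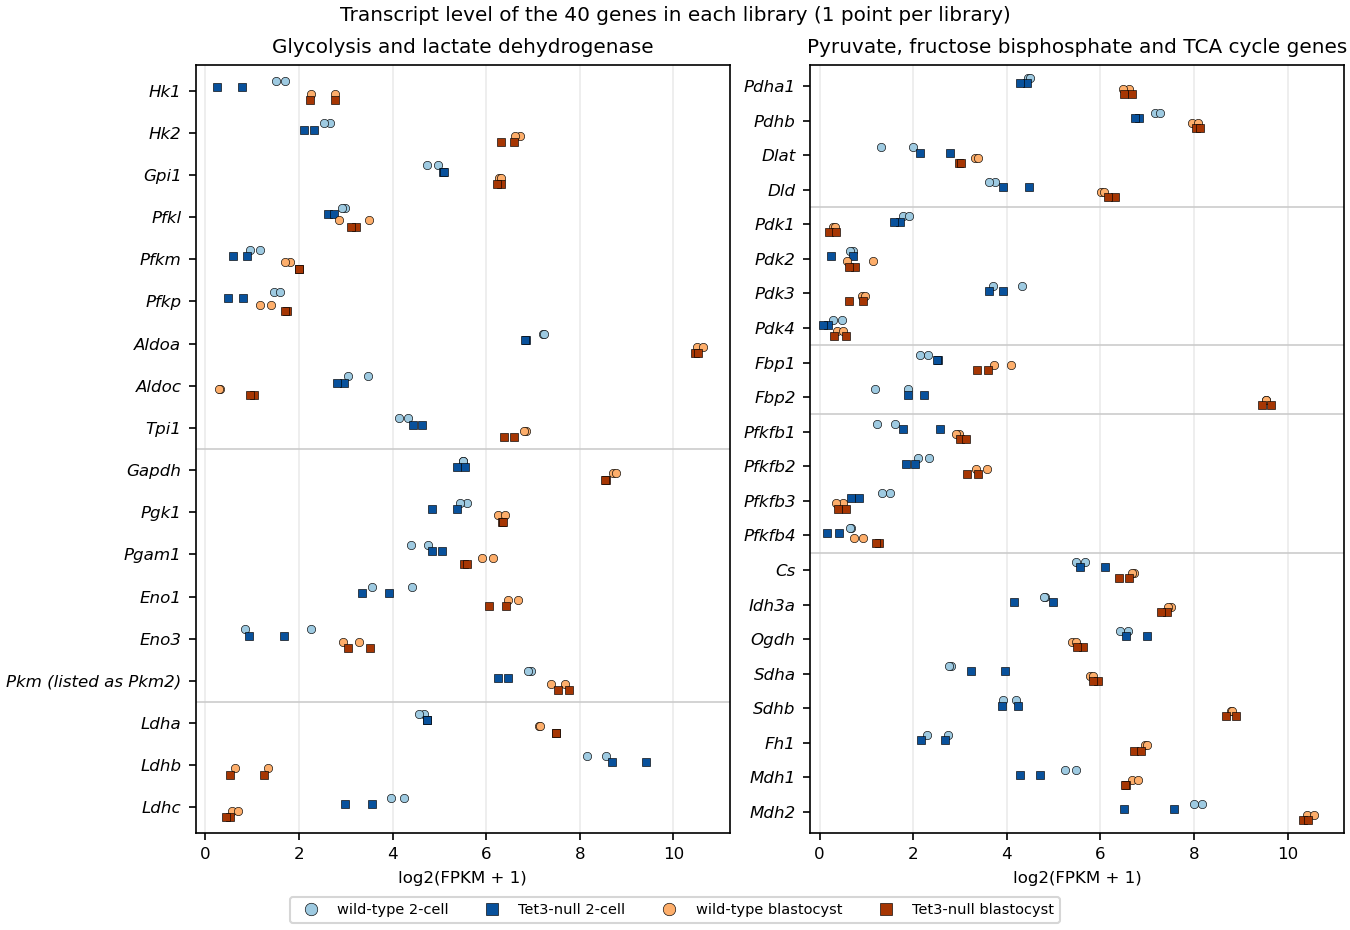
Level of each of the 40 genes on the log2(FPKM + 1) scale (horizontal axis), 1 point per library, coloured by group and ordered by role, with 2 libraries per group. Blastocyst points (orange and brown) lie to the right of the 2-cell points (blue) for 29 genes and to the left for 7, among them Ldhb, Ldhc, Aldoc, Pdk1 and Pdk3.

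By its mean over the 4 libraries, the most abundant transcript of the set at the 2-cell stage was Ldhb, at 438 ± 172 FPKM (SD, n = 4 libraries, both genotypes pooled), followed by Mdh2 at 205 ± 87.1, Aldoa at 131 ± 20.8, Pdhb at 129 ± 23.7, Pkm2 at 101 ± 23.5 and Ogdh at 99.5 ± 18.2 FPKM. In wild-type replicate 2 Mdh2 (288 FPKM) was above Ldhb (282 FPKM), and the wild-type means, 328 ± 65.4 for Ldhb and 271 ± 24.6 for Mdh2 (SD, n = 2), differed by less than their spread. Mdh2 and Aldoa, Aldoa and Pdhb, and Pkm2 and Ogdh differed by less than their spread between libraries. In blastocysts the order was led by Aldoa at 1478 ± 74.7 FPKM and Mdh2 at 1385 ± 97.0, which again differed by about their spread. Within each blastocyst library, however, Aldoa was above Mdh2. Fbp2 at 747 ± 37.8, Sdhb at 445 ± 25.6 and Gapdh at 400 ± 33.6 FPKM followed. Ldhb was between 0.428 and 1.54 FPKM in blastocysts.

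Hexokinase 2, which commits glucose to the cell by phosphorylation, rose most among the upper glycolysis genes. Hk2 stood at 5.33 and 4.80 FPKM in wild-type and 3.97 and 3.28 FPKM in Tet3-null 2-cell libraries, and at 104, 97.6, 95.1 and 78.8 FPKM in the blastocyst libraries in the same order. The stages did not overlap, and Hk2 was 19.9-fold higher in wild-type blastocysts (log2 change 4.07 ± 0.17 SE, adjusted p = 1.77e-06 by limma) and 23.97-fold higher in Tet3-null ones. Its paralog Hk1 was low, at 0.185 to 2.26 FPKM and then 3.69 to 5.85 FPKM. The difference was called in both genotypes. In wild-type embryos the call was lost without 2-cell replicate 1 (log2 change 0.81), 2-cell replicate 2 (1.01) or blastocyst replicate 1 (0.65) of that genotype. It was also lost with libraries scaled to the same sum without small RNA genes (adjusted p = 0.155 by limma). A pseudocount of 0.1 gave 0.0910 and no filter on low values 0.0582, so it was lost there too.

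Of the other upper glycolysis genes, Aldoa, Tpi1 and Gpi1 rose in both genotypes. Aldolase A, which splits fructose bisphosphate, was at 148, 150, 114 and 113 FPKM in the 2-cell libraries (wild-type, then Tet3-null) and at 1458, 1582, 1404 and 1469 FPKM in the blastocysts. The brain-type paralog Aldoc went the other way: 7.28, 10.1, 6.77 and 6.05 FPKM became 0.233, 0.228, 1.07 and 0.935 FPKM. That is 37.6-fold lower in wild-type and 6.41-fold lower in Tet3-null blastocysts, and both were called. Triose phosphate isomerase Tpi1 (16.5 to 23.7, then 82.7 to 114 FPKM) and glucose phosphate isomerase Gpi1 (25.6 to 33.4, then 74.3 to 79.0 FPKM) did not overlap between stages.

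The phosphofructokinases, which catalyse the main regulated step of glycolysis, stayed at or below 10.3 FPKM in every library. Pfkl, the liver-type subunit and the most abundant of the phosphofructokinases, was at 5.14 to 6.86 FPKM in 2-cell and 6.24 to 10.3 FPKM in blastocyst libraries and was called in neither genotype (adjusted p = 0.381 and 0.0898 by limma). The muscle-type Pfkm, at 0.514 to 1.23 and then 2.26 to 3.01 FPKM, was called higher in both. Its wild-type call was lost without wild-type blastocyst replicate 1 (log2 change 0.65). It was also lost with libraries scaled to the same sum without small RNA genes (adjusted p = 0.125 by limma). The platelet-type Pfkp was called higher in Tet3-null embryos (3.99-fold) and not called in wild-type ones (adjusted p = 0.249), where scaling to the same sum without small RNA genes called it lower (log2 change -0.59, adjusted p = 0.0288). The difference between genotypes in that change is given with the genotype results below.

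All 6 lower glycolysis genes rose in both genotypes. Gapdh, which oxidizes glyceraldehyde phosphate, was at 40.7 to 45.6 FPKM in the 2-cell libraries and at 421, 437, 376 and 368 FPKM in the blastocysts, 9.69-fold higher in wild-type and 8.62-fold in Tet3-null embryos. Enolase 1 rose 6.09-fold and 6.47-fold, from 9.12 to 20.3 FPKM up to 66.2 to 102 FPKM. The muscle enolase Eno3 was a minor transcript, at 3.78, 0.797, 0.896 and 2.19 FPKM and then at 8.79, 6.72, 7.22 and 10.5 FPKM. Its wild-type call was lost in 5 alternatives: without wild-type 2-cell replicate 2 (adjusted p = 0.0990), wild-type blastocyst replicate 1 (0.0966) or wild-type blastocyst replicate 2 (0.0512), with no filter on low values (0.0517) and with libraries scaled to the same sum without small RNA genes (0.0759).

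Increases were smaller for the remaining lower glycolysis genes. Phosphoglycerate kinase Pgk1 was 1.77-fold and 2.35-fold higher in blastocysts of wild-type and Tet3-null origin, and phosphoglycerate mutase Pgam1 2.80-fold and 1.53-fold. Pyruvate kinase (Pkm2), which forms pyruvate, was at 123, 118, 87.7 and 74.9 FPKM and then at 166, 203, 216 and 184 FPKM, which is 1.53-fold and 2.46-fold higher. The smaller of these differences were sensitive to scaling: with libraries scaled to the same sum without small RNA genes, the wild-type adjusted p was 0.237 for Pgk1 and 0.693 for Pkm2, and the Tet3-null adjusted p for Pgam1 was 0.710. Under quantile normalization Pkm2 in wild-type embryos (adjusted p = 0.320 by limma) and Pgam1 in Tet3-null embryos (0.116) were also not called. The Pkm2 call was lost without wild-type 2-cell replicate 2 (log2 change 0.57) or blastocyst replicate 2 (0.45) too. That of Pgam1 was lost without Tet3-null 2-cell replicate 2 (log2 change 0.50), blastocyst replicate 1 (0.64) or blastocyst replicate 2 (0.56). Several of these enzymes, Gapdh, Aldoa, Pgk1, Ldha, Tpi1, Pgam1, Eno1 and Pkm among them, have processed pseudogenes, and how shared reads were counted is not given in the sources used here, so their levels are uncertain.

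Lactate dehydrogenase exchanged its main paralog between the stages. Ldhb, the heart-type subunit, was at 375 and 282 FPKM in wild-type and 411 and 682 FPKM in Tet3-null 2-cell libraries, and at 1.54, 0.549, 1.39 and 0.428 FPKM in the blastocysts. Ldha, the muscle-type subunit, was at 24.3, 22.7, 25.6 and 25.8 FPKM and then at 138, 141, 178 and 179 FPKM. Ldhc, the germ-cell form, fell from 14.7, 17.9, 10.7 and 6.92 FPKM to 0.477, 0.617, 0.447 and 0.363 FPKM. No 2-cell library overlapped a blastocyst library for any of these genes.

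Ldhb was 315-fold lower in wild-type blastocysts (log2 change -7.36 ± 0.38 SE, adjusted p = 4.32e-06 by limma) and 600-fold lower in Tet3-null ones. Ldha was 5.94-fold and 6.95-fold higher, so the summed lactate dehydrogenase level still fell, from between 323 and 715 FPKM to between 141 and 180 FPKM. As shares of that sum, Ldhb made up 90.6%, 87.4%, 91.9% and 95.4% of the 2-cell libraries and 1.10%, 0.387%, 0.776% and 0.238% of the blastocysts. Ldha rose from between 3.60% and 7.02% to between 98.6% and 99.6%. These are the genes whose upstream sequences are printed above.

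The fructose bisphosphatases, which hydrolyse fructose bisphosphate back to fructose phosphate, changed order as well. Fbp2, the muscle-type enzyme, was at 2.69, 1.26, 3.70 and 2.71 FPKM in the 2-cell libraries and at 743, 742, 705 and 797 FPKM in the blastocysts. This was the largest rise among the tested genes of the set, 376-fold in wild-type (log2 change 8.01 ± 0.25 SE, adjusted p = 7.40e-07 by limma) and 234-fold in Tet3-null embryos. Fbp1, the liver-type enzyme, was at 4.02, 3.44, 4.77 and 4.68 FPKM and then at 15.9, 12.3, 9.35 and 11.0 FPKM, 3.79-fold and 2.16-fold higher. Both genes were called in both genotypes, though the Tet3-null call of Fbp1 was lost with libraries scaled to the same sum without small RNA genes (adjusted p = 0.0548). The share of Fbp1 in their sum went from 63.2% ± 7.29 (SD, n = 4) to 1.60% ± 0.360.

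Shares within a family do not change when a library is scaled by a single factor, and 9 families were compared between the 4 2-cell and 4 blastocyst libraries with exact two-sided permutation tests. In 5 families the share of the paralog tested did not overlap between stages: Ldhb, Fbp1, Aldoa, Pfkfb3 and Mdh1. Each gave the smallest p the design allows, 0.0286, which becomes 0.0514 after Benjamini-Hochberg adjustment over the 9 families, so no family passed an adjusted 0.05 in this exact test. Apart from lactate dehydrogenase and fructose bisphosphatase, the leading paralog was the same at both stages in the aldolases, where Aldoa moved from 94.6% ± 0.687 to 99.96% ± 0.0319 (SD, n = 4 per stage). It was likewise the same in malate dehydrogenase, where Mdh1 fell from 13.6% ± 2.66 to 6.66% ± 0.321 and mitochondrial Mdh2 held the rest.

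In the other 4 families the share of the paralog tested overlapped between stages. Hk1 made up 25.5% and 32.0% of hexokinase in wild-type but 15.1% and 5.33% in Tet3-null 2-cell libraries, and 3.70% to 6.85% in blastocysts (exact permutation p = 0.0571). Pfkl held 75.3% ± 7.65 and then 63.9% ± 5.91 of phosphofructokinase (SD, n = 4, exact permutation p = 0.0857), a difference of -1.54 percentage points between the wild-type means and -21.3 between the Tet3-null means. Eno1 held 86.2% ± 10.6 and 90.8% ± 3.23 of enolase (SD, n = 4, exact permutation p = 0.457). The share of Pdk1 among the pyruvate dehydrogenase kinases was 14.2% and 10.8% on average (exact permutation p = 0.200).

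Shares of 4 other paralogs in these families did not overlap between stages; they were singled out after their values were seen and were not tested. Pfkm held 8.48% to 12.5% of phosphofructokinase in 2-cell and 15.9% to 25.0% in blastocyst libraries. Pdk3 held 77.0% to 84.7% and then 29.7% to 46.6% of the kinases. Pdk2 (1.29% to 3.71%, then 26.4% to 43.1%) and Pdk4 (0.382% to 1.71%, then 11.9% to 25.8%) were higher in blastocysts as shares of a sum that was below 3 FPKM there.

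**Figure D2:**
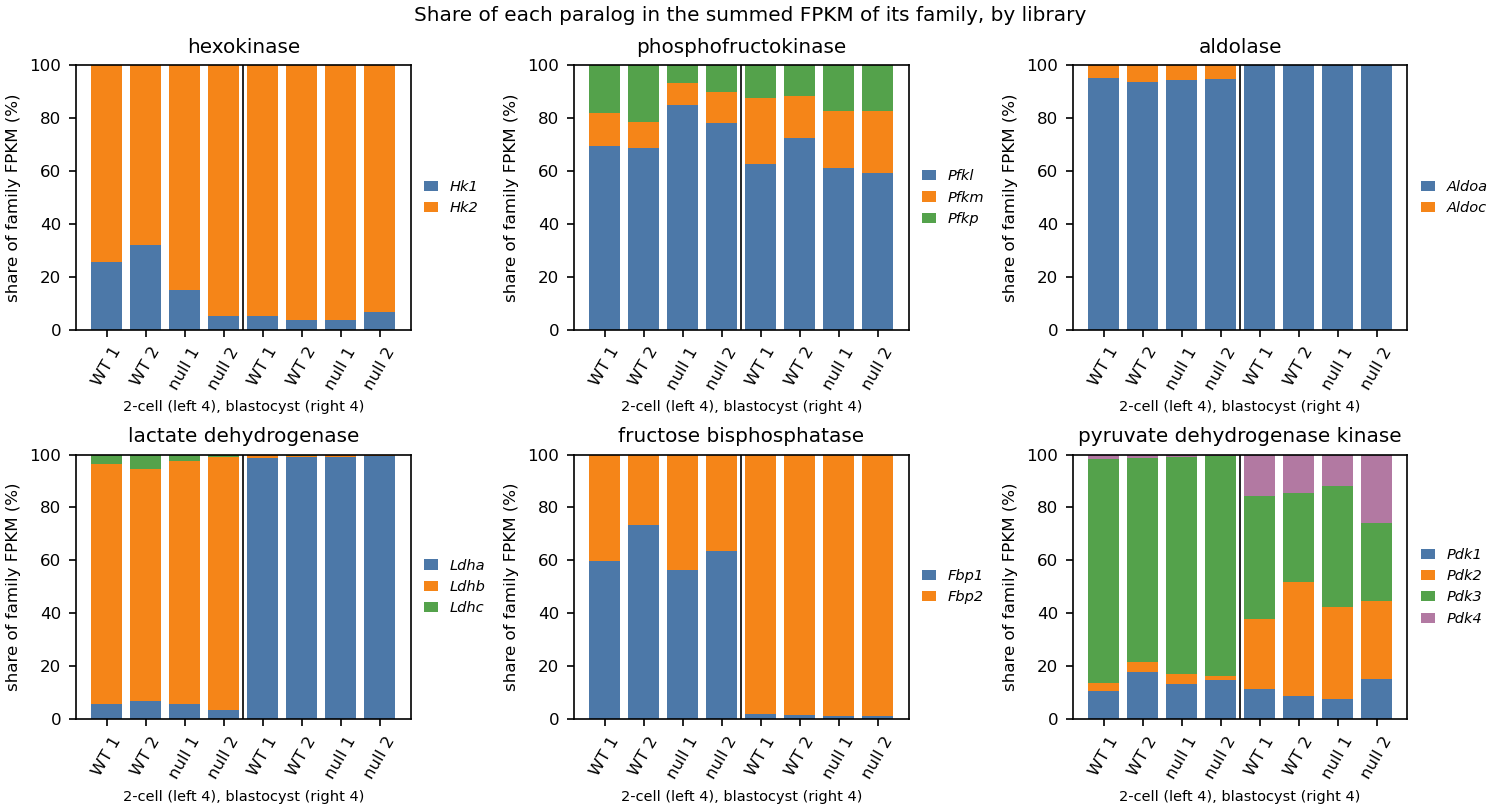
Share of each paralog (percent, vertical axis) in the summed FPKM of 6 enzyme families, 1 bar per library, with the 2-cell libraries left of the vertical line and the blastocysts right of it (WT, wild-type; null, Tet3-null). Ldhb fills 87.4% to 95.4% of the left bars of lactate dehydrogenase and Ldha 98.6% to 99.6% of the right bars, and Fbp2 replaces Fbp1 as the larger share of fructose bisphosphatase.

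The bifunctional PFK-2/FBPase-2 enzymes, which set the level of the phosphofructokinase activator fructose 2,6-bisphosphate, were all below 11 FPKM. Pfkfb2 rose 2.73-fold in wild-type and 3.03-fold in Tet3-null embryos, from 4.06, 3.30, 2.59 and 3.11 FPKM to 10.9, 9.16, 9.44 and 7.82 FPKM. Pfkfb1 went from 2.04, 1.34, 2.46 and 4.95 FPKM to 6.86, 6.50, 6.98 and 7.70 FPKM. It rose 3.95-fold and 1.98-fold. Its Tet3-null call was lost without 2-cell replicate 1 (log2 change 0.48), blastocyst replicate 1 (0.94) or blastocyst replicate 2 (0.81) of that genotype. It was also lost with libraries scaled to the same sum without small RNA genes (adjusted p = 0.233 by limma) or by median-of-ratios (0.0550). Comparing the 2 groups alone gave 0.0676, and no filter on low values 0.0510. Pfkfb3 was at 1.84 and 1.52 FPKM in wild-type, 0.796 and 0.586 FPKM in Tet3-null 2-cell libraries and 0.408, 0.279, 0.475 and 0.312 FPKM in blastocysts. It was called lower in wild-type embryos (4.89-fold) and not in Tet3-null ones (adjusted p = 0.185 by limma). Pfkfb4 was at 0.599, 0.557, 0.107 and 0.340 FPKM and then at 0.675, 0.895, 1.43 and 1.31 FPKM, with no overlap between stages. It was called higher in Tet3-null embryos and not in wild-type ones (adjusted p = 0.391 by limma).

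All 4 components of the pyruvate dehydrogenase complex in the set were higher in every blastocyst library than in any 2-cell library. The kinases that could be tested fell, and so did the phosphatase genes Pdp1 and Pdp2, which are outside the set. Unlike the 4 components in the set, Pdhx, a component of the complex outside it, was lower in blastocysts. It was at 27.3, 25.9, 26.7 and 45.5 FPKM in 2-cell and 16.0, 17.9, 18.5 and 17.0 FPKM in blastocyst libraries. The E1 subunits Pdha1 (18.3 to 21.7, then 88.1 to 101 FPKM) and Pdhb (106 to 155, then 248 to 280 FPKM) rose in both genotypes, though the wild-type call of Pdhb was lost with libraries scaled to the same sum without small RNA genes (adjusted p = 0.0593). So did Dld, the shared dihydrolipoamide dehydrogenase, by 5.49-fold and 4.24-fold. Dlat, the acetyltransferase core, was at 3.01, 1.49, 3.39 and 5.94 FPKM and then at 8.998, 9.47, 6.83 and 7.06 FPKM; it was called in wild-type (4.10-fold) and not in Tet3-null embryos (adjusted p = 0.146).

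Among the kinases, Pdk3 fell from 19.1, 12.0, 14.1 and 11.3 FPKM to 0.866, 0.949, 0.901 and 0.555 FPKM, 17.1-fold in wild-type and 17.4-fold in Tet3-null embryos. Pdk1 fell from between 2.02 and 2.78 FPKM to between 0.153 and 0.281 FPKM, 11.3-fold and 9.90-fold. Pdk2 (0.175 to 1.22 FPKM) and Pdk4 (0.0517 to 0.482 FPKM) were low throughout. The summed level of the 4 kinases was 13.5 to 22.6 FPKM at the 2-cell stage and 1.86 to 2.82 FPKM in blastocysts.

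In the TCA cycle 7 of 8 genes rose and Ogdh fell, in both genotypes. The iron-sulfur subunit of succinate dehydrogenase, Sdhb, went from 14.2, 17.4, 13.9 and 18.0 FPKM to 441, 450, 413 and 475 FPKM, 28.2-fold higher in wild-type and 27.8-fold in Tet3-null blastocysts. Fumarase, Fh1, went from 3.898, 5.69, 5.38 and 3.48 FPKM to 123, 127, 104 and 116 FPKM, 26.0-fold and 24.8-fold. The flavoprotein subunit Sdha rose 9.38-fold and 5.07-fold, to between 53.9 and 60.7 FPKM. In blastocysts Sdhb was above Sdha in every library by a wide margin, at 413 FPKM or more against 60.7 FPKM or less.

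Citrate synthase, Cs, the entry step, was 2.202-fold and 1.59-fold higher, but its Tet3-null call depended on the scaling. It was lost under median-of-ratios scaling (adjusted p = 0.0656 by limma), quantile normalization (0.295) and the same sum without small RNA genes (0.570). It was also lost with only the 2 groups compared (0.0646) and without Tet3-null blastocyst replicate 1 (log2 change 0.57). Idh3a, the catalytic subunit of NAD-dependent isocitrate dehydrogenase, rose from between 16.9 and 30.8 FPKM to between 157 and 181 FPKM. Mitochondrial malate dehydrogenase, Mdh2, was at 254, 288, 189 and 90.1 FPKM and then at 1369, 1515, 1280 and 1375 FPKM, and cytosolic Mdh1 at 43.4, 36.7, 25.0 and 18.4 FPKM and then at 101, 110, 93.2 and 90.5 FPKM. Ogdh, the E1 component of the 2-oxoglutarate dehydrogenase complex, was at 95.9, 84.4, 91.9 and 126 FPKM in 2-cell and 40.96, 43.8, 48.4 and 44.2 FPKM in blastocyst libraries. It fell 2.13-fold in wild-type (adjusted p = 0.00125 by limma) and 2.35-fold in Tet3-null embryos (0.000676).

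**Figure D3:**
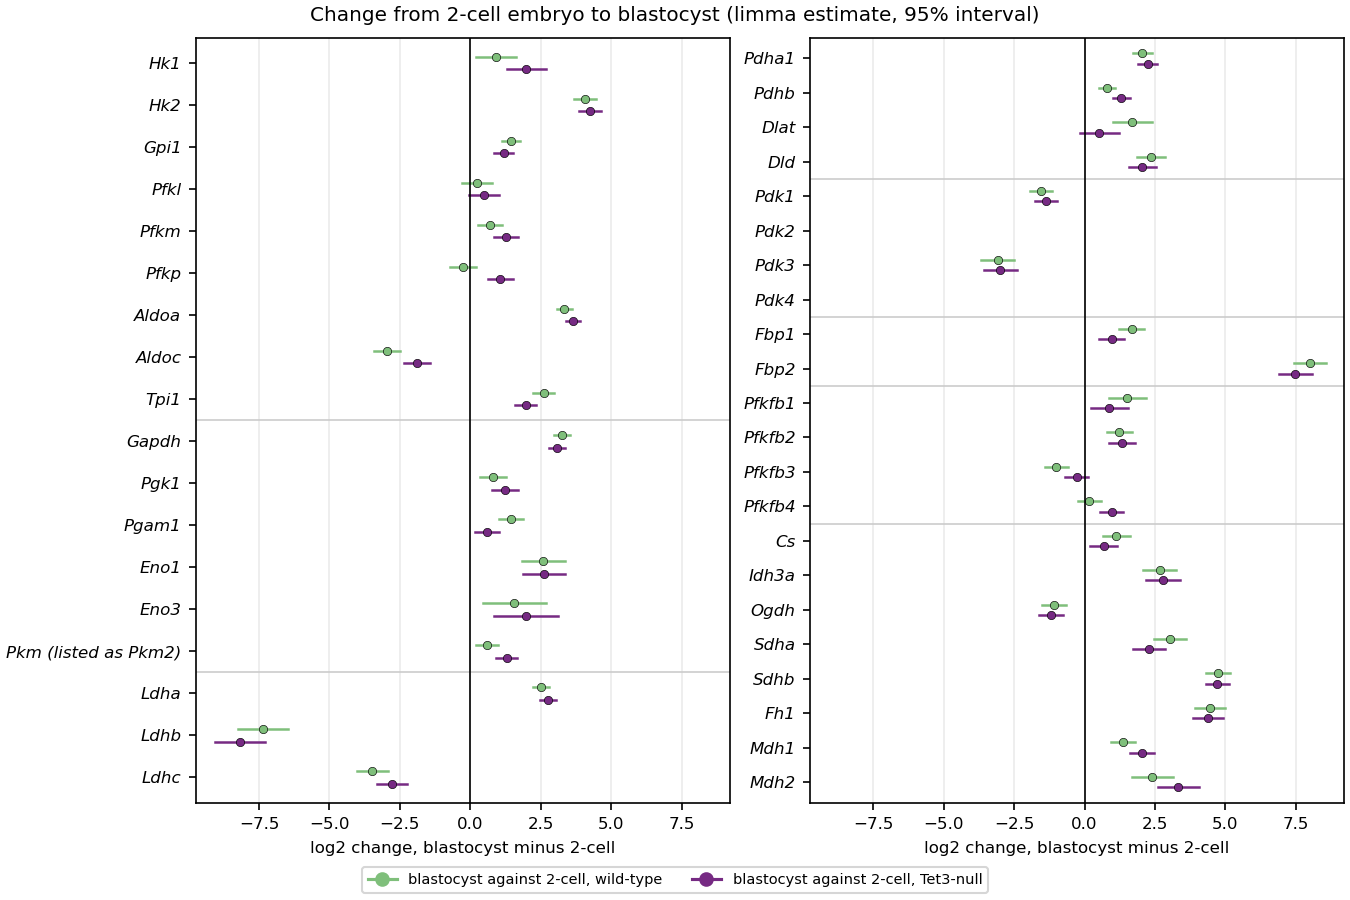
Change from 2-cell embryo to blastocyst on the log2(FPKM + 1) scale (horizontal axis) for the 38 genes tested, as the limma estimate with its 95% interval, in wild-type (green) and Tet3-null (purple) embryos. Fbp2 lies farthest right at 8.01 and 7.49 and Ldhb farthest left at -7.36 and -8.16, and Ogdh is the only TCA cycle gene left of 0.

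Other genes of the same pathways moved in both directions between the stages. Of 64 further pathway genes listed, 53 could be tested; 28 were called higher and 15 lower in wild-type blastocysts, beside the 35.8% and 38.4% of all genes, and 30 and 13 in Tet3-null ones, beside 38.9% and 35.1%. Genes are named here by their change on the log2(FPKM + 1) scale, on which low genes such as Pgls and Gpd1 rank lower than by the ratio of means. Suclg1, a succinyl-CoA ligase subunit, was 75.4-fold higher in wild-type embryos, from 5.74 and 3.49 FPKM to 325 and 371 FPKM. The muscle phosphoglycerate mutase Pgam2 rose 49.2-fold in wild-type embryos, from 1.12 and 1.34 FPKM to 68.3 and 53.1 FPKM. Cytosolic Idh1, the lactate transporter chaperone Bsg and Sdhc completed the 5 largest rises on that scale in wild-type embryos (20.2-fold, 18.6-fold and 17.2-fold). In Tet3-null embryos Idh3b rose 24.3-fold and Bsg 24.1-fold.

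Of the pathway genes outside the set that fell most on the log2(FPKM + 1) scale, Bpgm, which diverts 1,3-bisphosphoglycerate from glycolysis, fell from between 122 and 168 FPKM to between 2.49 and 5.62 FPKM (49.2-fold and 32.6-fold). Brp44, the older symbol of the mitochondrial pyruvate carrier subunit Mpc2, fell 13.9-fold and 11.6-fold, and the glucokinase regulator Gckr from between 9.83 and 25.3 FPKM to between 0.0766 and 0.372 FPKM. The testis-type phosphoglycerate kinase Pgk2, at 3.17 to 7.68 FPKM in 2-cell libraries, was listed at 0 in all 4 blastocyst libraries, and Pdpr, the regulatory subunit of pyruvate dehydrogenase phosphatase, fell 5.21-fold and 7.32-fold. The partner subunits of multi-protein enzymes could be followed too: Sdhc and Sdhd rose with Sdha and Sdhb, and Idh3b and Idh3g rose with Idh3a. Dlst (4.13-fold and 5.87-fold) rose with Dld while Ogdh, the first component of the same complex, fell.

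Between genotypes at the 2-cell stage, none of the 38 tested genes was called, beside 2.72% of all genes tested; 14 of the 38 had an unadjusted p under 0.05 in limma, beside 23.7% of all genes. The Tet3-null libraries lay wholly above the wild-type ones for 11 genes and wholly below for 18, beside 12.6% and 34.9% of all genes. The median difference was -0.24 on the log2 scale for the set and -0.17 for all genes. With median-of-ratios scaling these medians were -0.0005 and 0.01, so the excess of lower values depended on the scaling. The blood and somatic markers given above were also lower in both Tet3-null 2-cell libraries, and their part in these values was not tested.

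The largest differences lay in Hk1, Mdh2 and Pfkp, all lower in Tet3-null 2-cell embryos, and in Sdha, Dlat and Pfkfb1, all higher. Hk1 was at 1.82 and 2.26 FPKM in wild-type and 0.709 and 0.185 FPKM in Tet3-null libraries (log2 difference -1.09 ± 0.30 SE, adjusted p = 0.0908). Mdh2 was at 254 and 288 against 189 and 90.1 FPKM (-1.05 ± 0.31 SE, adjusted p = 0.109). In both genes the groups did not overlap, and the lowest value was that of Tet3-null replicate 2.

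Pfkp was at 1.78 and 2.02 FPKM in wild-type and 0.406 and 0.742 FPKM in Tet3-null 2-cell libraries (-0.89 ± 0.19 SE, adjusted p = 0.0578). The smallest adjusted p of the set was that of Mdh1, at 43.4 and 36.7 against 25.0 and 18.4 FPKM (-0.87 ± 0.18 SE, adjusted p = 0.0544). Sdha was at 5.98 and 5.80 against 8.42 and 14.7 FPKM (0.82 ± 0.24 SE, adjusted p = 0.106). For Dlat the values were 3.01 and 1.49 against 3.39 and 5.94 FPKM (0.80 ± 0.30 SE, adjusted p = 0.162), and for Pfkfb1 2.04 and 1.34 against 2.46 and 4.95 FPKM (0.77 ± 0.28 SE, adjusted p = 0.161).

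Without Tet3-null 2-cell replicate 1, which leaves replicate 2 alone in its group and assumes that it varies like the other groups, 15 genes of the set were called, beside 25.7% of all genes tested. Those called higher were Cs, Dlat, Dld, Ogdh, Pfkfb1 and Sdha, and those called lower were Aldoa, Hk1, Ldhc, Mdh1, Mdh2, Pdhb, Pfkfb3, Pfkp and Pkm2. Without replicate 2, the library with the most genes at 0, none of the set was called, beside 2.52% of all genes tested. Scaling to the same sum without small RNA genes called Mdh1 (adjusted p = 0.0478) and Pfkp (0.0468), beside 3.90% of all genes.

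In blastocysts none of the 38 genes was called between genotypes either, beside 0.0664% of all genes; 3 had an unadjusted p under 0.05 in limma, beside 5.46% of all genes. Groups did not overlap for 8 genes higher and 12 lower in Tet3-null blastocysts, beside 19.0% and 25.3% of all genes. Aldoc was at 0.233 and 0.228 FPKM in wild-type and 1.07 and 0.935 FPKM in Tet3-null blastocysts (log2 difference 0.70 ± 0.20 SE, adjusted p = 0.628). Ldha was at 138 and 141 against 178 and 179 FPKM (0.35 ± 0.12 SE, adjusted p = 0.852), with less than 3 FPKM between the libraries of either genotype. Pgam1 was at 69.7 and 59.2 against 44.8 and 47.2 FPKM (-0.47 ± 0.18 SE, adjusted p = 0.860).

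Pfkp, Pfkfb4, Fbp1 and Dlat differed by more than Ldha on the log2 scale (0.44, 0.41, -0.43 and -0.37). Against their errors these differences were smaller than that of Ldha. Pfkp was at 1.23 and 1.63 against 2.34 and 2.24 FPKM, and Pfkfb4 at 0.675 and 0.895 against 1.43 and 1.31 FPKM, both higher in the Tet3-null libraries. Fbp1 at 15.9 and 12.3 against 9.35 and 11.0 FPKM and Dlat at 8.998 and 9.47 against 6.83 and 7.06 FPKM were lower there. The summed level of the 8 blastocyst markers was 4489 and 4200 FPKM in wild-type and 3036 and 2807 FPKM in Tet3-null blastocysts, with Krt8 and Krt18 holding most of it. Its part in these values was not tested.

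**Figure D4:**
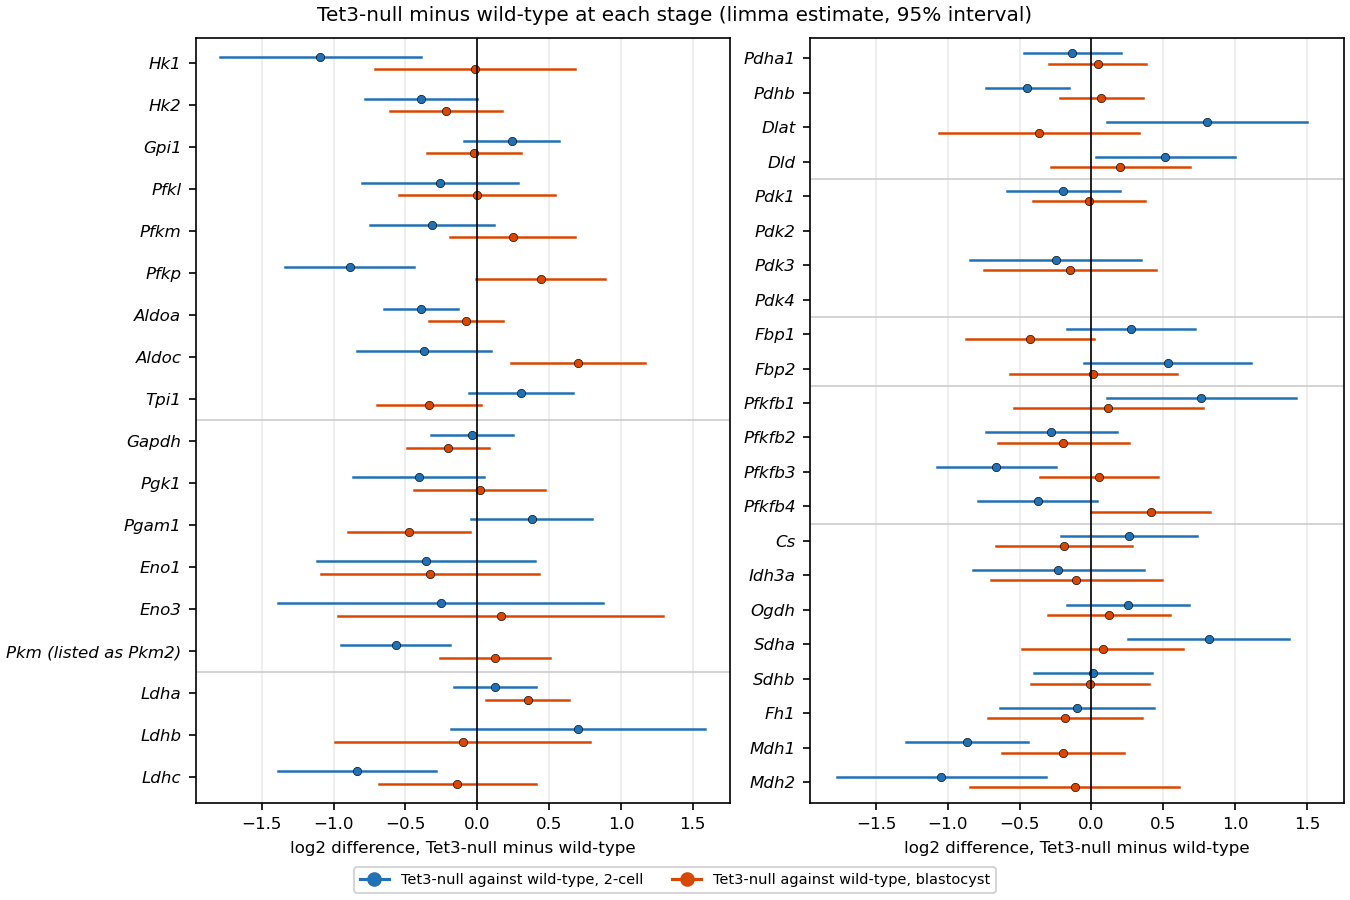
Difference between embryos from Tet3-null and wild-type oocytes on the log2(FPKM + 1) scale (horizontal axis), as the limma estimate with its 95% interval, in 2-cell embryos (blue) and blastocysts (orange). The 2-cell differences run from -1.09 for Hk1 to 0.82 for Sdha and the blastocyst differences from -0.47 for Pgam1 to 0.70 for Aldoc, and none was called.

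The difference of the genotype effect between the stages was tested as an interaction. It was called for none of the 38 genes, beside 0.140% of all genes, and 12 had an unadjusted p under 0.05 in limma, beside 14.4% of all genes. Pfkp gave the largest value, 1.33 ± 0.27 SE on the log2 scale (adjusted p = 0.135): lower in both Tet3-null 2-cell libraries and higher in both Tet3-null blastocyst libraries than in any wild-type library of the stage. Hk1 (1.08 ± 0.42 SE, adjusted p = 0.318) and Aldoc (1.07 ± 0.28 SE, adjusted p = 0.195) followed. The most negative values were those of Dlat (-1.17 ± 0.42 SE, adjusted p = 0.288), Pgam1 (-0.85 ± 0.25 SE, adjusted p = 0.229) and Ldhb (-0.80 ± 0.53 SE, adjusted p = 0.524). Without Tet3-null 2-cell replicate 1 the interaction was called for Mdh1, Mdh2, Pfkp and Sdha, beside 12.8% of all genes tested.

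Pgk1, Pdha1 and Pdk3 are X-linked. The summed FPKM of 4 Y-linked genes at the 2-cell stage was 31.6 and 34.2 in wild-type libraries against 24.9 and 0.158 in Tet3-null ones, and in blastocysts 52.9 and 48.3 against 98.0 and 90.7, so the pools differed in these transcripts. Pgk1 was at 47.2 and 42.6 against 27.8 and 40.4 FPKM at the 2-cell stage and at 74.6 and 84.1 against 79.7 and 80.5 FPKM in blastocysts, and the part of embryo sex in its values was not tested.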

How the data were processed

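RNA-seq of pooled embryos gave 8 libraries, 2 in each of 4 groups of genotype and stage, and the replicate numbers are those of the labels. The deposited values are FPKM per gene, made by the authors on the mm9 genome; per the submitters' processing notes the tools were Cufflinks 2.2.0, Bowtie2 2.1.0 and TopHat2 2.0.10. Which gene annotation was used, with what options, and how multi-mapped reads were counted is not given in the sources used here. The cDNA kit and library kit named in the labels' protocols do not mark strand, so antisense reads are not separated. FPKM of short or low genes is unstable, read totals are unknown, and relative depth was estimated from values under 0.15 FPKM.

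Genes reaching 1 FPKM in 2 or more libraries (13549) were put on the log2(FPKM + 1) scale and fitted in limma 3.58.1 (R 4.3.3) with a mean for each of the 4 groups, all 8 libraries together, and an intensity trend; residual degrees of freedom were 4 and prior ones 3.07. The two-sided p-values were Benjamini-Hochberg adjusted over every gene tested and called at 0.05, and each adjusted p printed for a gene is from this fit. This scale understates changes of low genes, so ratios of mean FPKM are given as folds. Errors of these log2 differences are standard errors, and intervals are at 95%. Paralog shares used exact permutation tests (scipy 1.17.1), in which libraries of both genotypes were pooled. The fit was tested on simulated data. Upstream sequences are RefSeq's, on GRCm38.p6, and no sequence was read from the deposited data.

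The 40 genes, the paralog families and the list of other pathway genes were chosen with earlier results of these data known. Values in every library are given for the 3 genes of the set with the largest change each way in each comparison. They are also given for families whose shares did not overlap. The other pathway genes named are at most the 5 with the largest change each way. The complex partners with Pdhx, Pdp1 and Pdp2, and Mdh1 and other genes of the set, were named after their values were seen. Alternatives were the pseudocount (0.1), no or a stricter filter (mean of 5 FPKM), 3 other scalings, no trend, the replicate block, the compared groups alone and each library left out.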

Additional observations from a re-analysis of the deposited data

How the results depend on the processing

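Between the stages, the count of called genes of the set was 29 to 35 in wild-type and 28 to 36 in Tet3-null embryos over all alternatives; leaving out 1 library at a time gave 31 to 35 and 31 to 36. Of the 70 single calls, 60 kept their direction and stayed under the threshold in each of the 9 other settings and 8 fits without 1 library in which the gene was tested, and 10 were lost in at least 1: Eno3, Hk1, Pdhb, Pfkm, Pgk1 and Pkm2 in wild-type and Cs, Fbp1, Pfkfb1 and Pgam1 in Tet3-null embryos. None reversed. Eno3 in wild-type embryos, for example, had a log2 change of 0.86 without wild-type 2-cell replicate 2 and 1.40 without wild-type blastocyst replicate 1. The lowest counts, 29 and 28, came with the stricter filter, under which only 30 genes of the set were tested. Scaling to the same sum without small RNA genes gave 22 higher and 8 lower in wild-type embryos, against 28 and 7. In Tet3-null embryos it gave 25 and 6, against 29 and 6.

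Between genotypes at the 2-cell stage, 0 genes of the set were called in the main analysis, 2 with libraries scaled to the same sum without small RNA genes, and 0 to 15 when 1 library was left out; the 15 came without Tet3-null 2-cell replicate 1. The difference between stages gave 0 to 4 when 1 library was left out, with the 4 in the same fit. In blastocysts it was 0 in every alternative. The cause was not tested.

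Scaling to the same sum without small RNA genes moved the median stage change of all genes from -0.08 to -0.50 in wild-type and from 0.09 to -0.32 in Tet3-null embryos, and the calls over all genes from 4857 higher and 5207 lower to 3819 and 6311 in wild-type and from 5276 and 4752 to 4323 and 5772 in Tet3-null embryos. The median of the set under it was 0.93 and 0.83. At the 2-cell stage, calls between genotypes over all genes went from 83 higher and 285 lower to 82 and 67 with median-of-ratios scaling, 94 and 104 with quantile normalization and 94 and 434 with the same sum, and to 3 in all with only the compared groups in the fit. Under at least 1 scaling the sign of the 2-cell genotype difference changed for Fh1, Gapdh, Idh3a, Pdha1, Pdk1, Pdk3 and Sdhb.

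With the replicate block, the count of the set was 35 in each stage comparison and 0 in each genotype comparison and the interaction, as without it, and 31 genes of all were called between genotypes at the 2-cell stage. Deviations of same-numbered libraries correlated at -0.0756 to 0.0184, so the numbers were not taken to pair libraries. The number of families with shares that did not overlap between stages was 5 to 6 over the alternatives. Read totals are unknown, so no counting interval can be given for genes under about 1 FPKM.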
